A study of Mus musculus with 4 samples.

Results

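Paneth cells are the antimicrobial secretory cells at the base of small intestinal (SI) crypts, and 9 genes that mark them were followed here from a fixed list of symbols. The genes were Lyz1, Defa17, Defa24, Ang4, Itln1, Mmp7, Mptx2, Habp2 and Sox9, each matched to 1 Ensembl identifier among the 55487 genes listed. Mouse SI organoids, which are epithelial cultures grown from crypts in IntestiCult medium, had been transduced with a lentivirus for miRNA overexpression. Of 4 libraries, replicates 1 and 2 carried the miRNA mimic control (NCLMIR002), replicates 3 and 4 carried the miR-181a-5p mimic (MLMIR0085), and their comparison addressed which transcripts respond to more miR-181a-5p. All cultures carried a lentivirus and were held in puromycin at 2 μg/ml, so no untransduced organoids stand beside them. The strain, age and genotype of the mice are not given in the sources used here, nor is it stated whether libraries came from separate transductions or mice. The p-values therefore set differences only against the spread between these libraries, which may be technical.

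Paneth cells store lysozyme, α-defensins and other antimicrobial proteins in large granules and release them into the crypt lumen. They sit between the Lgr5-positive stem cells and supply them with Wnt, EGF and Notch signals. Wnt signaling and the transcription factor SOX9 are needed to form them, and ATOH1, GFI1 and SPDEF act in the secretory lineage they share with goblet cells. A miRNA lowers mRNAs that pair with its seed, bases 2 to 8 of its mature sequence.

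The mimicked miRNA is shown because its seed defines the match that was sought in the Paneth cell genes. It is encoded at chr1:137966468-137966490 and chr2:38852741-38852763, both on the plus strand (RefSeq, GRCm38.p6), and the capitals mark the seed. The tables list gene transcripts and not mature miRNA, so the level of miR-181a-5p itself was not analysed here.
mmu-miR-181a-5p: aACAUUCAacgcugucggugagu
The match to this seed in DNA letters, TGAATGT on the transcript strand, occurred in 0 of the 9 Paneth cell genes, both in the longest annotated 3' UTR (79 to 2250 bases; GENCODE M21, GRCm38) and in the coding sequence. The same match was present in the 3' UTR of 18.4% of 12847 tested genes with a 3' UTR of at least 50 bases. That share was not matched for 3' UTR length, and Mptx2, Defa17, Defa24, Itln1, Ang4 and Mmp7 had short 3' UTRs of 79 to 228 bases. The absence says only that these letters are not in the annotated windows.

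Defa17 and Defa24, the α-defensins of the list, are near copies of each other. Their coding sequences were identical at 267 of 279 aligned bases (95.7%), and a stretch near the end is printed because it holds bases that distinguish the copies. It covers coding bases 238 to 267, with the 4 differing bases in capitals.
Defa17: acctgcagAaagggtcatttaAtgtacaCA
Defa24: acctgcagTaagggtcatttaTtgtacaTG
For Defa17, 270 of 298 possible stretches of 100 bases (90.6%), the read length, also occurred in Defa3 or Defa30. Defa24 shared 0 stretches of that length with any other gene. Lyz1 shared 2.06% with Lyz2, the lysozyme of myeloid cells, and Mptx2 shared 3.31% with Mptx1, whereas the other 5 genes shared 0. The deposited counts, which are estimates, were fractional in all 4 libraries for Defa17, Defa24 and Lyz1. Exact matches of this length therefore need not show every shared read. Levels assigned to Defa17 are thus uncertain, and those of Defa24 and Lyz1 may be in part. The sum over all α-defensin genes is given beside those of Defa17 and Defa24.

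Depth was similar in all libraries, with 31104884 to 38111731 expected counts, which are RSEM's estimates of the reads from each gene. Levels are given as normalized CPM, meaning each count as a share of its TMM-scaled library size (factors of 0.978 to 1.01), in the unit CPM. Differences are log2 ratios of mimic over control from edgeR's quasi-likelihood test on 17155 genes that passed a filter on low counts, with p adjusted by Benjamini-Hochberg. Epithelial markers were abundant, and all 8 together (Epcam, Cdh1 and keratins among them) summed to 4532 to 5088 normalized CPM. All 12 leukocyte and mesenchymal markers summed to 4.78 to 7.36, and 7 of them, Ptprc and the collagens included, did not pass the filter. Enterocyte markers summed to 8344 and 9781 in the controls and to 7402 and 7276 with the mimic. Much of this came from Anpep, with 1851 and 1245 in the controls, against 289.0 and 411.9 with the mimic. Of the 15 enterocyte markers, 10 had a log2 fold change below 0 and 5 above. Mitochondrial genes took 4.30% and 4.55% of counts in the controls, against 3.46% and 3.43% with the mimic. The part of these differences in the results below was not tested.

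Of the 9 Paneth cell genes, 8 passed the filter and 0 passed the test, which required an adjusted p under 0.05 together with a change of 2-fold or more. Among all tested genes, 1.47% passed as lower and 0.589% as higher. At any fold, an adjusted p under 0.05 was reached by 0 of the 8, against 2.29% of all tested genes lower and 1.28% higher. Before adjustment, edgeR's test gave p under 0.05 for 3 of the 8, Ang4, Mmp7 and Habp2, all with lower means with the mimic, beside 13% of tested genes lower and 11.8% higher. The same 3 genes were lower in both mimic libraries than in both controls, 0 were higher in both, and the groups overlapped for the other 5. That separation was seen for 29.5% of all tested genes in the lower and 28.9% in the higher direction. In the fit, the log2 fold change was below 0 for 6 of 8 genes, with a median of -0.64 against -0.01 over all tested genes. Without control 1 the median was 0.01 with 4 of 8 below 0, and without control 2 it was -1.03 with 7 of 8 below 0. A fit that leaves out a library takes the spread within that group from the other group alone, so its p-values do not show that spread. In what follows, a gene is said to have risen or fallen where its adjusted p was under 0.05, at any fold. In bulk RNA, fewer Paneth cells and less RNA per Paneth cell cannot be told apart.

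**Figure D1:**
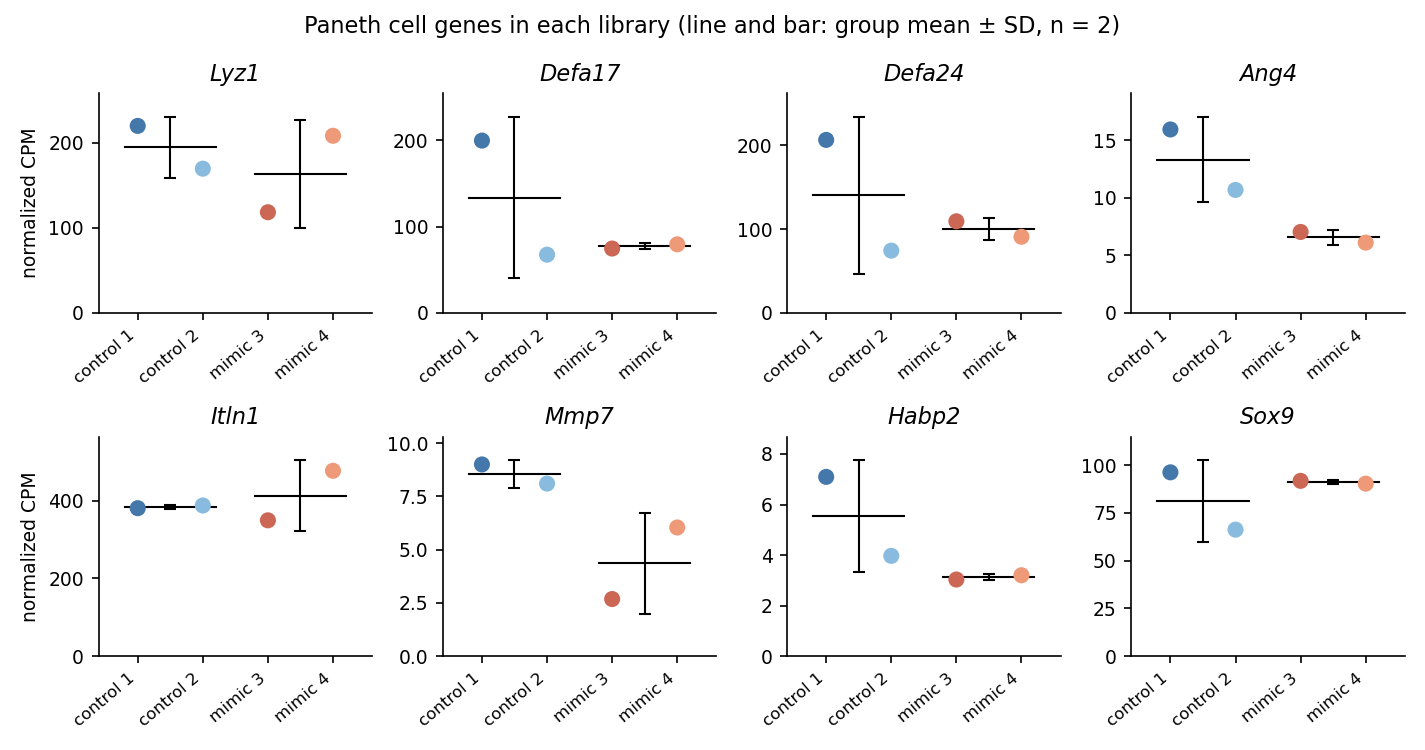
Normalized CPM (linear vertical axes that start at 0) of the 8 Paneth cell genes that passed the filter, with a point for each library and the mean ± SD of each group (n = 2). Control 1 was the highest library for 7 of the 8 genes, and Defa17 and Defa24 show the widest gap between the controls.

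Defa17, Defa24 and Itln1 were the most abundant of these transcripts by TPM, which counts per transcript length. Defa17 (ENSMUSG00000060208, chr8:21655780-21656735, plus strand) had 784 TPM in control 1, 268 in control 2, 292 in mimic 3 and 342 in mimic 4. Defa24 (ENSMUSG00000064213, chr8:21734494-21735471, plus strand) had 756, 275, 400 and 365 TPM in the same order. Control 1 stood alone, with control 2 below both mimic libraries for each gene.
In normalized CPM, Defa17 measured 199.7 and 67.3 in the controls, against 74.4 and 79.3 with the mimic. Its means were 133.5 ± 93.6 and 76.9 ± 3.46 (SD, n = 2 each), and the log2 fold change was -0.80 (SE 0.41, 95% interval -1.75 to 0.15, edgeR adjusted p = 0.27). Defa24 measured 206.5 and 74.2 in the controls, against 109.2 and 90.7 with the mimic. Cryptdin peptides of this kind kill bacteria by disrupting their membranes. For Defa24, the log2 fold change was -0.49 (SE 0.39, 95% interval -1.40 to 0.42, edgeR adjusted p = 0.47). Both directions rested on control 1. Without that library the log2 fold changes were 0.19 for Defa17 and 0.43 for Defa24, with edgeR adjusted p of 0.46 and 0.14. Without control 2 they were -1.37 and -1.04, with edgeR adjusted p of 0.000103 and 0.00115. In that fit 4 Paneth cell genes passed as lower, the others being Ang4 and Habp2, beside 3.62% of 18257 tested genes.

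The annotation held 39 genes whose symbol begins with Defa, of which 21 had any counts. Summed over all of them, normalized CPM was 479.4 in control 1, 157.2 in control 2, 203.4 in mimic 3 and 190.7 in mimic 4. The sum, which does not depend on how reads were divided between copies, had a log2 fold change of -0.69 (SE 0.41, edgeR adjusted p = 0.34). Defa17 and Defa24 held 84.7% of α-defensin counts in control 1 and 89.2% to 90.3% in the other 3 libraries. Of the other 37 genes, 13 passed the filter, 11 of these had their highest value in control 1, and 0 reached an adjusted p under 0.05. All 37 together summed to 73.2 normalized CPM in control 1 and 15.8, 19.7 and 20.7 in control 2, mimic 3 and mimic 4. The minor α-defensin transcripts were thus highest in control 1 as well, although reads of near copies can be divided among them and the major genes.

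**Figure D2:**
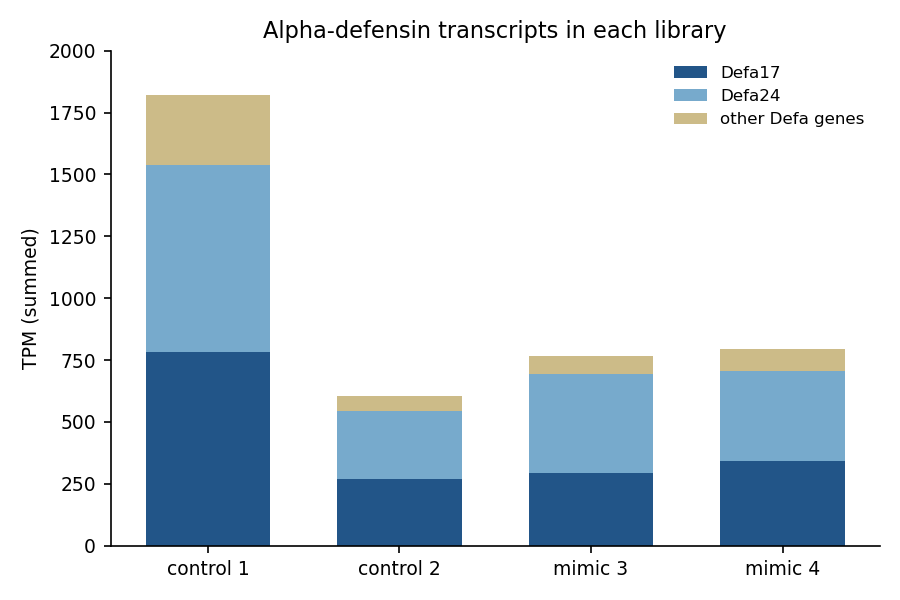
Summed TPM (vertical axis, from 0) of Defa17, Defa24 and all other Defa genes in each library, as stacked bars. The total was 1823 in control 1, 605.3 in control 2, 767.3 in mimic 3 and 793.7 in mimic 4.

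Lyz1 (ENSMUSG00000069515, chr10:117287797-117292868, minus strand) encodes the lysozyme of Paneth cells, which cleaves bacterial cell walls. Its level was 219.6 and 169.3 normalized CPM in the controls, against 118.1 and 208.0 with the mimic. Mimic 3 was the lowest library, whereas mimic 4 lay between the controls. The log2 fold change was -0.25 (SE 0.25, 95% interval -0.83 to 0.32, edgeR adjusted p = 0.56). It was 0.11 without mimic 3 and -0.72 without mimic 4.

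Ang4 (ENSMUSG00000060615, chr14:51763878-51773590, minus strand) encodes angiogenin 4, a ribonuclease of Paneth granules that acts on microbes. Normalized CPM was 15.9 and 10.7 in the controls, against 7.03 and 6.10 with the mimic. Both mimic libraries were below both controls, and the mimic libraries lay closer together than the controls. The means were 13.3 ± 3.72 and 6.56 ± 0.657 (SD, n = 2 each). In the fit, the log2 fold change was -1.03 (SE 0.22, 95% interval -1.54 to -0.51), and its edgeR adjusted p of 0.0512 lay just outside the threshold. Ang4 passed at 0.00209 in edgeR's exact test, where 3.09% of tested genes passed as lower. DESeq2 gave it an adjusted p of 0.00349, with 4.68% of the 13920 genes it adjusted having an adjusted p under 0.05 as lower. Of 10 alternatives that keep all libraries and single α-defensin genes, these 2 alone brought Ang4 under 0.05. Its adjusted p was 0.11 in edgeR's test with no filter on low counts, and 0.13, 0.14 and 0.67 in limma's fits on TPM. Its log2 fold change ran from -1.28 without control 2 to -0.71 without control 1. An exact permutation test of 2 libraries against 2 cannot go below p = 0.33 for any of these genes.

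Mmp7 (ENSMUSG00000018623, chr9:7692090-7699585, plus strand) encodes matrilysin, the protease that activates pro-α-defensins in mouse Paneth cells. Its level was 8.998 and 8.10 normalized CPM in the controls, against 2.68 and 6.04 with the mimic. The controls were close to each other and above both mimic libraries, and mimic 3 was far below mimic 4. The log2 fold change was -0.96 (SE 0.33, 95% interval -1.73 to -0.19, edgeR adjusted p = 0.14). Without mimic 4 it was -1.67 with an edgeR adjusted p of 0.00651, and Mmp7 then was the only Paneth cell gene called, beside 2.14% of tested genes lower. Without mimic 3 it was -0.50, with an edgeR adjusted p of 0.43.

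Itln1 (ENSMUSG00000038209, chr1:171518122-171535294, minus strand) encodes intelectin 1, a lectin that binds microbial glycans. It was the most even of the group, with 380.3 and 387.2 normalized CPM in the controls, against 349.1 and 476.4 with the mimic. The mimic libraries lay on both sides of the controls. In the fit, the log2 fold change was 0.11 (SE 0.15, 95% interval -0.24 to 0.45, edgeR adjusted p = 0.70).

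Mptx2 (ENSMUSG00000079180, chr1:173274382-173277777, minus strand) encodes a pentraxin, a family of soluble pattern-recognition proteins. It had 2 and 0 counts in the controls, against 1 and 3 with the mimic, and it did not pass the filter. In control 2 a count of 0 allows up to 3 counts. No change of Mptx2 was detectable at this depth, and no fold is given.

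Habp2 (ENSMUSG00000025075, chr19:56287137-56320822, plus strand) encodes a secreted serine protease that binds hyaluronan. Normalized CPM was 7.09 and 3.97 in the controls, against 3.03 and 3.20 with the mimic. Both mimic libraries were lower, by a small margin from control 2. The log2 fold change was -0.84 (SE 0.30, 95% interval -1.53 to -0.14, edgeR adjusted p = 0.14). In TPM the groups overlapped for Habp2, with 3.73 and 2.25 in the controls, against 2.28 and 2.17 with the mimic, and on log2(TPM + 1) the difference was -0.28. Without control 1 the log2 fold change was -0.35, with an edgeR adjusted p of 0.55.

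Sox9 (ENSMUSG00000000567, chr11:112782224-112787760, plus strand) encodes the transcription factor that Paneth cells need and that is also expressed in crypt progenitors. Its level was 96.3 and 66.3 normalized CPM in the controls, against 91.8 and 90.4 with the mimic. Control 2 was the low library, and the mimic libraries were nearly equal and lay between the controls. In the fit, the log2 fold change was 0.16 (SE 0.17, 95% interval -0.22 to 0.55, edgeR adjusted p = 0.57).

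**Figure D3:**
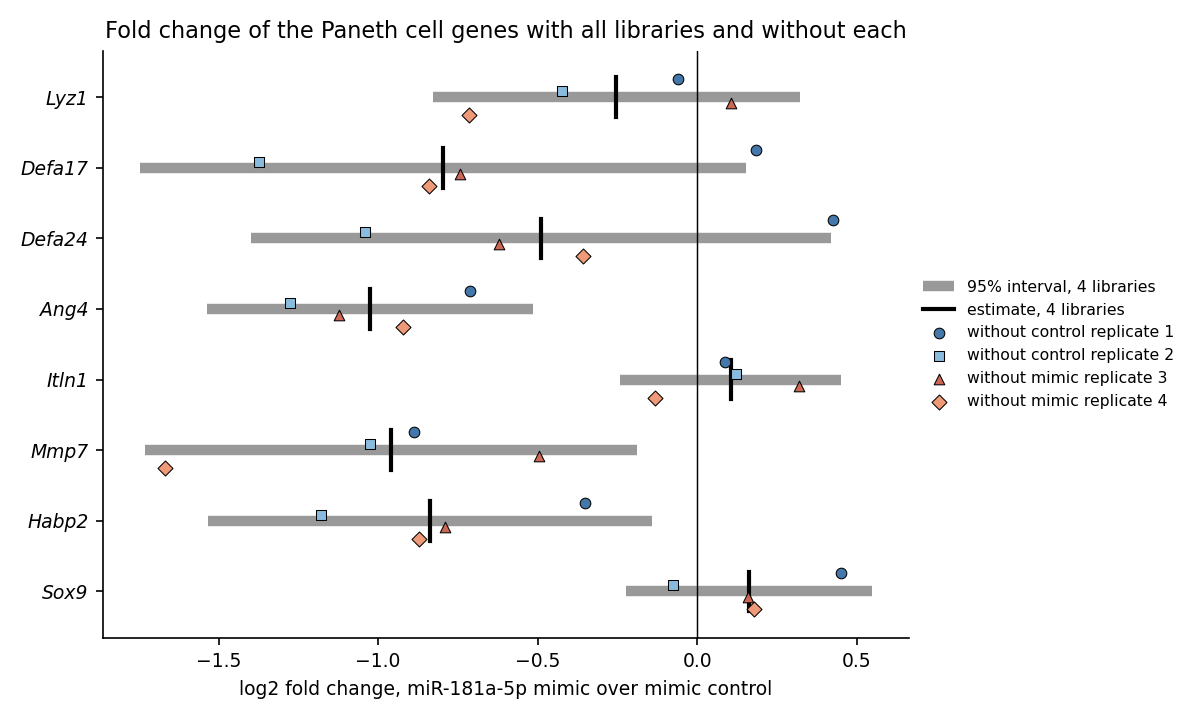
Log2 fold change (horizontal axis, mimic over control) of the 8 tested Paneth cell genes, with the estimate and 95% interval from all 4 libraries and a marker for each fit that leaves out a library. Defa17 and Defa24 lie above 0 without control replicate 1, while Ang4, Mmp7 and Habp2 stay below 0 in all 4 such fits.

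By mean TPM the order in the controls was Defa17 (526.1), Defa24 (515.4), Itln1 (436.0), Lyz1 (197.6), Ang4 (25.8), Sox9 (23.8), Mmp7 (10.4) and Habp2 (2.99). With the mimic it was Itln1 (493.6), Defa24 (382.1), Defa17 (317.1), Lyz1 (175.5), Sox9 (27.98), Ang4 (13.2), Mmp7 (5.66) and Habp2 (2.23). The step from Lyz1 down to Ang4 or Sox9 exceeded the range of the libraries in each group. Among the first 3 genes the libraries overlapped in the controls, so their order there is not resolved, and Ang4 and Sox9 overlapped there as well. With the mimic Itln1 overlapped Defa24, since its lowest library (396.1) lay below the highest of Defa24 (399.7), whereas both libraries of Defa17 were below those of Defa24. Defa17 and Defa24 together made up 68.0% of the TPM of the 9 genes in control 1 and 44.7% to 55.2% in the other libraries.

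The controls differed most for the α-defensins, and the mimic libraries for Mmp7 and Lyz1. For control 2 over control 1 the log2 ratio was -1.57 for Defa17, -1.48 for Defa24, -0.84 for Habp2, -0.58 for Ang4, -0.54 for Sox9 and -0.38 for Lyz1. Mmp7 and Itln1 were close in the controls, at -0.15 and 0.03. Over all tested genes, the 5th to 95th percentile of this ratio ran from -0.83 to 0.57, and 3.11% of genes were at -1 or below. Among 9369 genes with a mean of at least 10 normalized CPM that share was 0.256%, and the percentiles ran from -0.34 to 0.41. Against this narrower range Sox9 and Lyz1 lay outside as well. Between the mimic libraries the pattern was another, with log2 ratios of mimic 4 over mimic 3 of 1.17 for Mmp7 and 0.82 for Lyz1, beside a range of -0.65 to 0.74 over all tested genes. Defa17 and Defa24 stood at 0.09 and -0.268 there, and Itln1 at 0.45. Among the 9369 more abundant genes the range was -0.266 to 0.34, so Itln1 lay outside it and Defa24 at its lower edge. Control 1 was the highest library for 7 of the 8 genes and for 32.8% of all tested genes. Enteroendocrine and tuft cell markers also had their highest sum in control 1, at 631.5 normalized CPM against 398.5 in control 2, and 498.7 and 476.3 with the mimic. Most of this sum was Chgb, with 452.2 and 287.3 in the controls, against 323.2 and 323.7 with the mimic. Stem cell markers summed to 2926 in control 1 and 2189 in control 2, and to 2609 and 2891 with the mimic. The part of these markers in the Paneth cell differences was not tested.

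**Figure D4:**
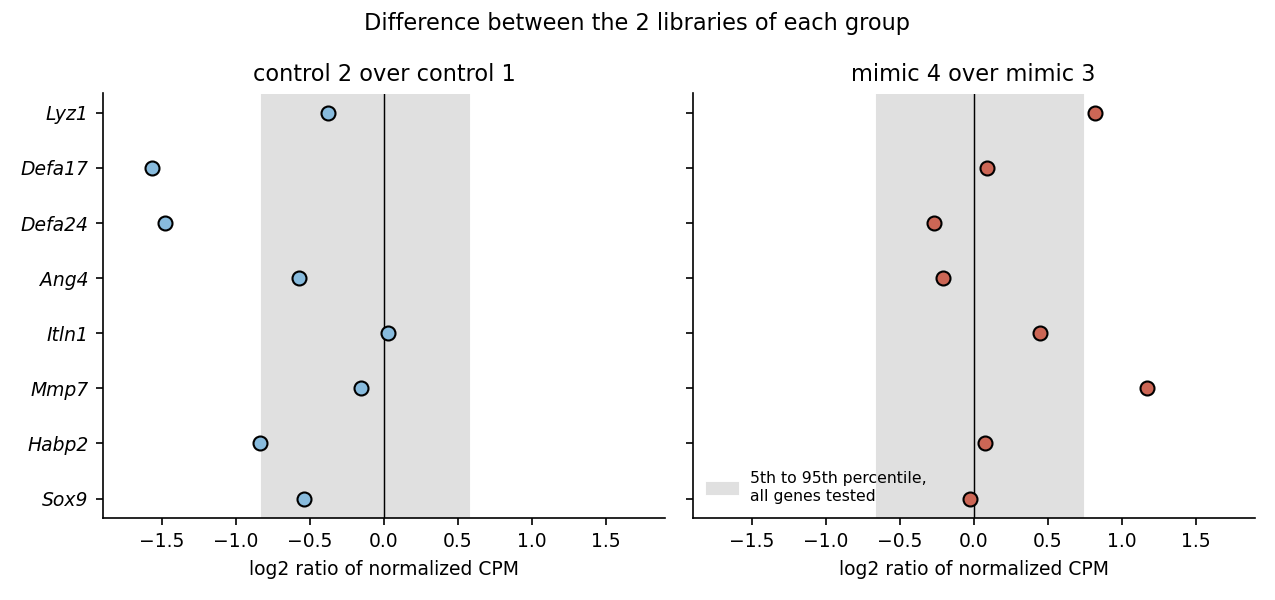
Log2 ratio of normalized CPM (horizontal axes) between the 2 control libraries on the left and the 2 mimic libraries on the right for each Paneth cell gene, with a grey band for the 5th to 95th percentile of all tested genes. Defa17, Defa24 and Habp2 lie outside the band between the controls, and Mmp7 and Lyz1 lie outside it between the mimic libraries. The narrower range of more abundant genes is not drawn.

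In the list of other antimicrobial and granule genes, 4 transcripts fell with the mimic, of which Reg3a alone is described here as antimicrobial. Of 54 such genes, 25 passed the filter, 21 of these had a log2 fold change below 0, and the median was -1.04. With an edgeR adjusted p under 0.05, 4 fell and 0 rose, beside 2.29% of all tested genes lower and 1.28% higher. Without control 1 the median was -0.13 with 13 of 24 genes below 0, and without control 2 it was -1.77 with 25 of 28. Both the size of the list's difference and the count below 0 thus rested on the controls used. Of the 25 genes, 13 were α-defensins, 11 of them below 0, and reads of such near copies can be divided among them. None of these α-defensins reached an adjusted p under 0.05. Pnliprp2, a pancreatic-type lipase, measured 80.4 and 49.9 normalized CPM in the controls, against 15.1 and 18.2 with the mimic. It fell by 1.97 on the log2 scale (SE 0.22, edgeR adjusted p = 0.00885). Reg3a, a bactericidal C-type lectin, measured 27.0 and 25.3 in the controls, against 10.1 and 5.67 with the mimic. Its decrease was -1.74 (SE 0.24, edgeR adjusted p = 0.0163). Nupr1, a nuclear stress-response protein, went from 84.0 and 107.9 in the controls to 35.5 and 38.3 with the mimic. This was a log2 fold change of -1.38 (SE 0.14, edgeR adjusted p = 0.00600). Clps, the colipase that assists lipases, measured 10.5 and 7.91 in the controls, against 4.598 and 4.75 with the mimic, at -0.98 (SE 0.20, edgeR adjusted p = 0.0470). For Reg3a, Pnliprp2 and Nupr1 the edgeR adjusted p stayed under 0.05 whichever library was left out, whereas Clps lost it in 3 of the 4 such fits. Reg3g, a lectin of the same family as Reg3a, had 33.9 and 10.9 in the controls, against 8.53 and 7.64 with the mimic, which did not pass (edgeR adjusted p = 0.11).

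Among 17 genes of the secretory and granule machinery, 15 were tested, 11 had a log2 fold change above 0 and the median was 0.17. Nod2, the sensor of bacterial muramyl dipeptide that is expressed in Paneth cells, was the only one to pass. It measured 6.13 and 3.52 normalized CPM in the controls, against 0.990 and 1.55 with the mimic, a log2 fold change of -1.93 (SE 0.36, edgeR adjusted p = 0.0379). Its adjusted p was above 0.05 without control 1 or without mimic 3. Xbp1, a factor of the unfolded protein response on which Paneth secretion depends, had a log2 fold change of -0.19 and did not pass (edgeR adjusted p = 0.31).

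All 15 Wnt and Eph genes of the crypt base were tested, with 6 below 0, 9 above 0 and a median of 0.01. The tally turned to 11 of 15 below 0 without control 2 and without mimic 4, with medians of -0.08 and -0.07. Mmp14, a membrane-anchored matrix protease that is in this list but is neither a Wnt nor an Eph gene, showed the clearest separation. It measured 25.6 and 23.8 normalized CPM in the controls, against 0.351 and 0.674 with the mimic, and fell by 5.56 on the log2 scale (SE 0.25, edgeR adjusted p = 0.000328). Ephb2, a receptor that sorts cells along the crypt axis, measured 117.6 and 131.7 in the controls, against 177.6 and 169.5 with the mimic. It rose by 0.48 (SE 0.10, edgeR adjusted p = 0.0483) but its adjusted p was above 0.05 without control 1, mimic 3 or mimic 4. Fzd5, the Wnt receptor that Paneth cell maturation needs, had a log2 fold change of 0.01 (edgeR adjusted p = 0.98).

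Of 14 secretory lineage factors, 0 had an edgeR adjusted p under 0.05, 5 were below 0 and 9 above, and the median was 0.18. The median was 0.26 without control 1, 0.14 without control 2, 0.19 without mimic 3 and 0.17 without mimic 4. Spdef and Gfi1, which direct secretory precursors to goblet and Paneth fates, had log2 fold changes of 0.72 and 1.17, with edgeR adjusted p of 0.0613 and 0.0745. Atoh1, the factor that starts secretory fate, stood at 0.62 (edgeR adjusted p = 0.12). For these 3 genes both mimic libraries were above both controls, which was true of 6 of the 14 and of 28.9% of all tested genes.

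Of 10 niche signals of Paneth cells, 9 were tested and the median was 0.00. Areg, an EGF receptor ligand, measured 67.3 and 110.0 normalized CPM in the controls, against 31.0 and 44.3 with the mimic, with a log2 fold change of -1.23 (SE 0.25, edgeR adjusted p = 0.0452). The adjusted p of Areg stayed under 0.05 without each library but was 0.05 or above in 5 of 10 other alternatives, DESeq2 among them (0.0569). Wnt3, a ligand that Paneth cells give to stem cells, had 4.85 and 2.90 in the controls, against 4.598 and 5.39 with the mimic (edgeR adjusted p = 0.46). Lgr5, the receptor that marks the neighboring stem cells, measured 401.5 and 312.0 in the controls, against 98.0 and 176.1 with the mimic, at -1.38 (SE 0.26, edgeR adjusted p = 0.0369). It was the only stem cell marker of 9 to reach an adjusted p under 0.05, and the list had 3 genes below 0, 6 above and a median of 0.05. Goblet cell markers, the nearest secretory relatives, had 4 of 10 tested genes below 0 and a median of 0.34. Their summed level was 1512 and 1849 in the controls, against 2022 and 1613 with the mimic. Most of it was Fcgbp, with 1076 and 1400 in the controls, against 1548 and 1208 with the mimic. Spink4 was the goblet marker that reached an adjusted p under 0.05, with a change short of 2-fold, at -0.59 (SE 0.11, edgeR adjusted p = 0.0353).

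**Figure D5:**
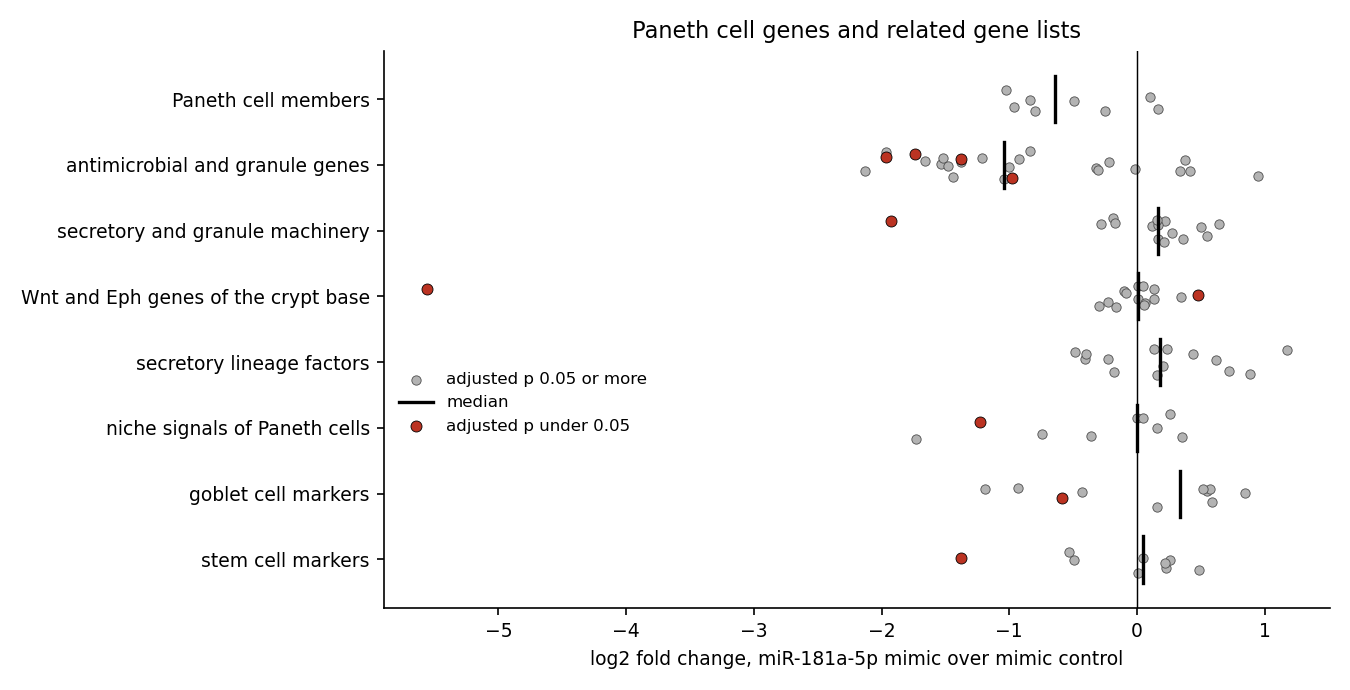
Log2 fold change (horizontal axis) of every tested gene in the Paneth cell set and 7 related lists, with vertical lines at the medians and red points at an adjusted p under 0.05. None of the 8 Paneth cell genes is red, while 4 genes of the antimicrobial and granule list are, namely Reg3a, Pnliprp2, Nupr1 and Clps.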

How the data were processed

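RNA-seq of 2 miRNA mimic control and 2 miR-181a-5p mimic organoid libraries was used. Single reads (100 cycles) had been trimmed by the authors with Trimmomatic and quantified on GRCm38 transcripts with RSEM, and they deposited expected counts per gene, not normalized, and TPM scaled to a common total. The sample labels describe poly(A) enrichment and the supplemental methods ribosomal RNA depletion, so which was used is unsettled. Software versions are not given in the sources used here. Both deposited tables had 3 further columns that matched no sample and were left out.

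After rounding, expected counts entered R 4.3.3 and edgeR 4.0.16 (TMM after filterByExpr, estimateDisp, glmQLFit without its legacy option, glmQLFTest; Benjamini-Hochberg over 17155 genes). The thresholds, a fold change of 2 and an adjusted p of 0.05, follow the study's methods. Normalized CPM are counts divided by the TMM-scaled library size, in CPM. Intervals are 95%. Precision was set by the spread between 2 libraries per group, which edgeR moderates for each gene with the spread of the other tested genes. The alternatives were RLE factors, library totals alone, 2 other filters on low counts, DESeq2 1.42.0, edgeR's exact test, limma 3.58.1 on TPM (log2, pseudocounts 1 and 0.1, genes reaching 1 TPM in 2 libraries, and for pseudocount 1 also all genes), summed Defa counts, and leaving out each library. The older form of the quasi-likelihood test was added after seeing the data. Genes named beyond the 9 are those of fixed lists with an adjusted p under 0.05, up to 3 most abundant of a list, and the 8 genes most like the mean profile. Reg3g, Spdef, Gfi1, Atoh1 and Wnt3 were chosen after their values were seen. A further list gene is not reported here. The 9 genes and the lists were chosen with earlier results of these data known, so none is independent support. Symbols matched 55141 of 55487 identifiers. Sequences came from RefSeq and GENCODE M21 transcripts, compared with Biopython 1.88. Plots were drawn with matplotlib 3.10.9.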

Additional observations from a re-analysis of the deposited data

How the results depend on the processing

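No paired analysis was possible because the sources used here do not state which control and mimic libraries belong together. The replicate numbers, 1 and 2 for the controls and 3 and 4 for the mimic libraries, were read from the sample titles. Fits that leave out a library assume that the lone library of a group varies like those of the other group. Over these fits, the log2 fold change ran from -0.72 to 0.11 for Lyz1, from -0.13 to 0.32 for Itln1, from -1.37 to 0.19 for Defa17, from -1.04 to 0.43 for Defa24 and from -0.075 to 0.45 for Sox9. These 5 genes changed sign, and Ang4 (-1.28 to -0.71), Mmp7 (-1.67 to -0.50) and Habp2 (-1.18 to -0.35) did not. The number of Paneth cell genes called ran from 0 to 4 and the number with an adjusted p under 0.05 from 0 to 4, with the most without control 2. Genes called over the whole table ran from 115 to 230 higher and from 166 to 661 lower, and genes of the 5 other Paneth lists from 4 to 18 lower (6 with all libraries) and from 0 to 1 higher.

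With all libraries 101 genes were called higher and 253 lower. There were 50 and 108 with no filter on low counts, 200 and 530 with edgeR's exact test, 30 and 41 on log2(TPM + 1), 11 and 16 on log2(TPM + 0.1), and 4 and 1 on log2(TPM + 1) with no filter. In the exact test 1 Paneth cell gene, Ang4, was called. With DESeq2 0 were called and 1, also Ang4, had an adjusted p under 0.05. Of 10 alternatives that keep all libraries, an adjusted p of 0.05 or above was reached in 3 for Reg3a, Pnliprp2 and Nupr1, in 4 for Nod2, in 5 for Clps, in 6 for Ephb2 and in 1 for Mmp14. The exact test called 1 gene of the other Paneth lists higher. The 3 TPM fits called 1, 1 and 0 of them lower. Ang4 also passed where α-defensin counts were summed into 1 feature (edgeR adjusted p = 0.0493), and without a filter on low values its adjusted p on log2(TPM + 1) was 0.67. Where a cause of these differences is not plain from fewer genes or libraries, the cause was not tested. With 2 libraries a group, smaller differences of genes such as Mptx2 could not be seen at these counts.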

Other observations

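The genes whose profile over the 4 libraries was most like the mean of the 8 tested Paneth cell genes were Fam107b, Lrrc31, Sfxn3, Glul, Limk2, Gstt2, Sema3c and Lpar6. Likeness was the Euclidean distance between centred log2(normalized CPM + 1) profiles, over 4 libraries, among genes with a mean of at least 10 normalized CPM. The distances ran from 0.02 for Fam107b to 0.12 for Lpar6, whereas the Paneth cell genes themselves lay at 0.24 (Habp2) to 0.79 (Mmp7) from their own mean. Fam107b measured 56.5 and 35.01 normalized CPM in the controls, against 30.7 and 36.4 with the mimic, and Glul, the glutamine synthetase, measured 134.8 and 80.2 in the controls, against 75.2 and 83.3 with the mimic. Both had control 1 as the highest library and groups that overlapped, and neither passed edgeR's test (adjusted p = 0.24 and 0.25). These genes were chosen for their likeness, so the shape of their profiles and their small distances follow from the choice.

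Among the enterocyte markers, Anpep, a brush border aminopeptidase, fell with the mimic, with a log2 fold change of -2.14 (SE 0.23, edgeR adjusted p = 0.00812). Of the 11 tested enteroendocrine and tuft cell markers, 0 passed, 8 were below 0 and 8 had their highest value in control 1. Kit, a receptor listed among the niche signals, was chosen after its values were seen. It measured 58.6 normalized CPM in control 1, 27.5 in control 2 and 25.1 and 26.4 with the mimic, and did not pass (edgeR adjusted p = 0.18).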
